A study of Mus musculus with 8 samples.

Results

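Replication-dependent histone genes encode the proteins that package newly made DNA. They were followed here in Irak1-/- and wt CD4+ T cells that had expanded side by side in the same hosts. Their members were the genes whose probe sets carried exactly 1 symbol of the form H1f, H2ac, H2bc, H3c or H4c followed by a digit, or an older Hist1h to Hist4h symbol. That gave 29 genes on 30 probe sets, out of 22180 genes with such a probe set. By type they were 8 linker histone H1 genes, 6 H2A genes, 8 H2B genes and 7 H4 genes. No H3 gene had a probe set of its own, and neither did the H1 genes H1f0 and H1f4.

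The study injected Irak1-/- (CD45.2) and wt (CD45.1) CD4+CD62L+ T cells of the C57BL/6 strain in equal numbers into Rag1-/- mice, which have no T or B cells of their own but keep myeloid and natural killer cells. Both genotypes were recovered 14 days later by sorting CD3+CD4+ cells out of mesenteric lymph nodes, and their RNA went onto Affymetrix arrays, 4 for Irak1-/- cells and 4 for wt cells. An experiment pooled 2 recipients and yielded 1 array per genotype, so the arrays form 4 pairs that share hosts. IRAK1 is a kinase that relays signals of IL-1 family and Toll-like receptors. The sources used here state neither which part of the gene was removed nor the age of the mice, nor how the RNA was primed for labelling, which matters for mRNAs without a poly(A) tail.

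A nucleosome wraps DNA around a core made of H2A, H2B, H3 and H4, and H1 binds the linker DNA between cores. Most core and H1 genes sit in clusters, are transcribed mainly in S phase, and give mRNAs that end in a conserved stem-loop in place of a poly(A) tail. The stem-loop binding protein SLBP and the nuclear factor NPAT are needed to process and transcribe them. T cells put into hosts without lymphocytes of their own are known to divide, and dividing cells make histone mRNA while they copy their DNA. In bulk RNA, fewer such cells and less histone mRNA per cell cannot be told apart.

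Of the 29 genes, 21 lie on chromosome 13 in the large cluster once called Hist1, and 5 lie on chromosome 3. Of the others, H1f8 and H1f10 lie on chromosome 6 and H1f7 on chromosome 15. The symbol rule took in genes that are not replication-dependent in somatic cells. H1f7 is made in spermatids, H1f8 in oocytes and H1f10 is a replacement linker histone. H1f6, H2ac1 and H2bc1 are testis histones within the chromosome 13 cluster.

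Promoter sequence is shown for 9 members, chosen because the 4 H1 genes of the cluster had similar differences in most pairs, the H2A genes hold the lowest and highest fitted differences, and the H2B and H4 genes are those with the highest levels or in the other cluster. The sequences are the 150 bases before the start of the gene in RefSeq, build GRCm38.p6, written 5′ to 3′. Capitals mark matches to TATAAA (the TATA box), to the CCAAT box, to an octamer found in H2B promoters (ATTTGCAT) and to the H1 box known from H1 promoters (AAACACA). Both strands were searched, so a match on the opposite strand reads as its reverse complement, and none of these motifs contains another. H1f5 lies at chr13:21780626-21780775 on the minus strand, H1f2 at chr13:23738657-23738806, H1f3 at chr13:23554882-23555031 and H1f1 at chr13:23763518-23763667, all on the plus strand.
H1f5: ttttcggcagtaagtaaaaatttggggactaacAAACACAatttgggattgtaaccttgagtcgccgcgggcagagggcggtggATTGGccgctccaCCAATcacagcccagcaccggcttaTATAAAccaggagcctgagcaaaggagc
H1f2: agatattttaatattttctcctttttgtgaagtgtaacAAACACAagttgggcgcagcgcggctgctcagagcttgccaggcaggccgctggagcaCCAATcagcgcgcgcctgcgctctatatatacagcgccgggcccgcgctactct
H1f3: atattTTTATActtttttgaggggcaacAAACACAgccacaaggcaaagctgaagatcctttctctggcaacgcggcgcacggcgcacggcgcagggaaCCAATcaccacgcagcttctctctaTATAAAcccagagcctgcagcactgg
H1f1: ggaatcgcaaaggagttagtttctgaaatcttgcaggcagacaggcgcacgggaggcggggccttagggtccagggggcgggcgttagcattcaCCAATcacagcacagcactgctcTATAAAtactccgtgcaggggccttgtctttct

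The core histone promoters come from both clusters. H2ac15 lies at chr13:21753913-21754062 on the minus strand and H2ac20 at chr3:96220881-96221030 on the minus strand. H2bc12 lies at chr13:22035671-22035820 and H2bc18 at chr3:96269550-96269699, both on the plus strand, and H4c12 at chr13:21750554-21750703 on the minus strand.
H2ac15: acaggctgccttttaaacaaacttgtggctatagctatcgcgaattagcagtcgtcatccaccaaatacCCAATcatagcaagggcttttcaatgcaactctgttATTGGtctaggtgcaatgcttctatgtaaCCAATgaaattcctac
H2ac20: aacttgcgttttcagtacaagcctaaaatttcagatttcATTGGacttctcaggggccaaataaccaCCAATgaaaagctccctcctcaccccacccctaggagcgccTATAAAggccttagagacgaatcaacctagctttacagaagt
H2bc12: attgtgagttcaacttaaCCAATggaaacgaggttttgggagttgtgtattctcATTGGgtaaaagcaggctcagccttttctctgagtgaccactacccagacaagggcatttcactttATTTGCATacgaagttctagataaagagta
H2bc18: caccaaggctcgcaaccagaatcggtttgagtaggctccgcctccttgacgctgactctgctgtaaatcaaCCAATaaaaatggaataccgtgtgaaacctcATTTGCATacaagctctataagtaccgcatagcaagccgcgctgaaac
H4c12: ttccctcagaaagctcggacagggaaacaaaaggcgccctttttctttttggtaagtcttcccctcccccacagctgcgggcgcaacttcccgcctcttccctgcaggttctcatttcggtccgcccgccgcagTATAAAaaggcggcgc

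The letters of these promoters differ by histone type. RefSeq held a window of 250 bases before to 50 after the start for 27 of the 29 members, and the 4 motifs were searched on both strands of it. The H1 box AAACACA was found in 4 of 8 H1 windows (50%), against 7.18% of all 32851 promoter windows. It was also in 2 of 7 H2B windows (28.6%) and 1 of 6 H2A windows (16.7%), and in no H4 window. Among the H1 genes it began 117 bases before the start in H1f5, 112 in H1f2, 122 in H1f3 and 114 in the testis gene H1f6, always on the coding strand. A CCAAT box followed it, beginning 53, 54, 51 and 65 bases before the start of the same genes. H1f1 had the CCAAT box, at 56 bases, and no match to AAACACA.

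The octamer ATTTGCAT, which the transcription factor OCT1 binds in H2B promoters, was found in 5 of 7 H2B windows (71.4%), against 1.74% of all windows. In H2bc12, H2bc18 and H2bc14 it began 30, 48 and 25 bases before the start. The octamer was also in 3 of 6 H2A windows, among them those of H2ac1 and H2ac12, which share 220 and 277 bases with the windows of the H2B genes H2bc1 and H2bc12 read from the opposite strand. No H1 or H4 window held it. All 6 H2A and all 7 H2B windows held a CCAAT box, against 37.4% of all windows and 1 of 6 H4 windows. A TATAAA match was found in 16 of 27 member windows (59.3%), against 13.6% of all windows. Such a match describes the letters and is no evidence that a factor was bound.

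Levels are log2 values of probe sets, the median of an array lay between 4.25 and 4.31, and the number of arrays limits the precision of every value. The Irak1-/- array of replicate 3 stood apart, correlating with the others at 0.95 to 0.957 over all probe sets, while the highest correlation of each other array was between 0.975 and 0.981. Irak1 itself had a log2 difference of 0.07 (limma adjusted p = 0.953), and without the position of the deletion its level does not check the genotype. The defining T cell markers were present, with a mean log2 level of 10.13 to 10.41 on Irak1-/- and 10.29 to 10.40 on wt arrays over 6 genes. Myeloid markers averaged 6.05 to 6.84 on Irak1-/- and 4.71 to 4.96 on wt arrays over 12 tested genes of 13 measured. Of these 6 were called higher, where 10 of all 13308 tested genes (0.0751%) were called in either direction. Among those not called, Cybb and Csf1r had log2 differences of 1.52 and 0.72 (limma adjusted p = 0.0635 and 0.471). The others not called, Itgam, Cd68, Adgre1 and Cst3, had 0.05, 0.16, 0.27 and -0.01 (limma adjusted p between 0.812 and 0.996). Lyz2, the macrophage lysozyme, read 7.34, 7.30, 8.78 and 8.58 on Irak1-/- and 4.59, 2.34, 4.33 and 4.10 on wt arrays, although the sort was for CD3+CD4+ cells. The B cell list, of which 3 of 5 measured genes were tested, averaged 4.25 to 4.52 on Irak1-/- and 4.16 to 4.63 on wt arrays. The NK, ILC and CD8 T cell list, 10 genes, averaged 6.22 to 6.59 on Irak1-/- and 6.64 to 6.85 on wt arrays. Of these 0 were called (limma adjusted p between 0.293 and 0.977). Their differences were positive for 3 and negative for 7, against 41.9% positive over all tested genes.

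Probe sets of the 29 histone genes read from 1.41 (H2bc1) to 11.26 (H1f5) as means over the 8 arrays. The levels of different probe sets also depend on how well each binds, so they are not amounts of RNA that can be set against each other. Mean levels ran from 2.91 to 11.26 among the H1 genes, 1.81 to 10.02 among H2A, 1.41 to 7.86 among H2B and 1.98 to 10.54 among H4. Genes were tested if their mean level lay above the 40th percentile of all genes, which left 13308 genes with a lowest mean of 3.90. Of the histone genes 21 passed: 6 H1, 5 H2A, 6 H2B and 4 H4 genes. H1f8 at 3.97 was the lowest that passed, and H4c17 at 3.52 the highest that did not.

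**Figure D1:**
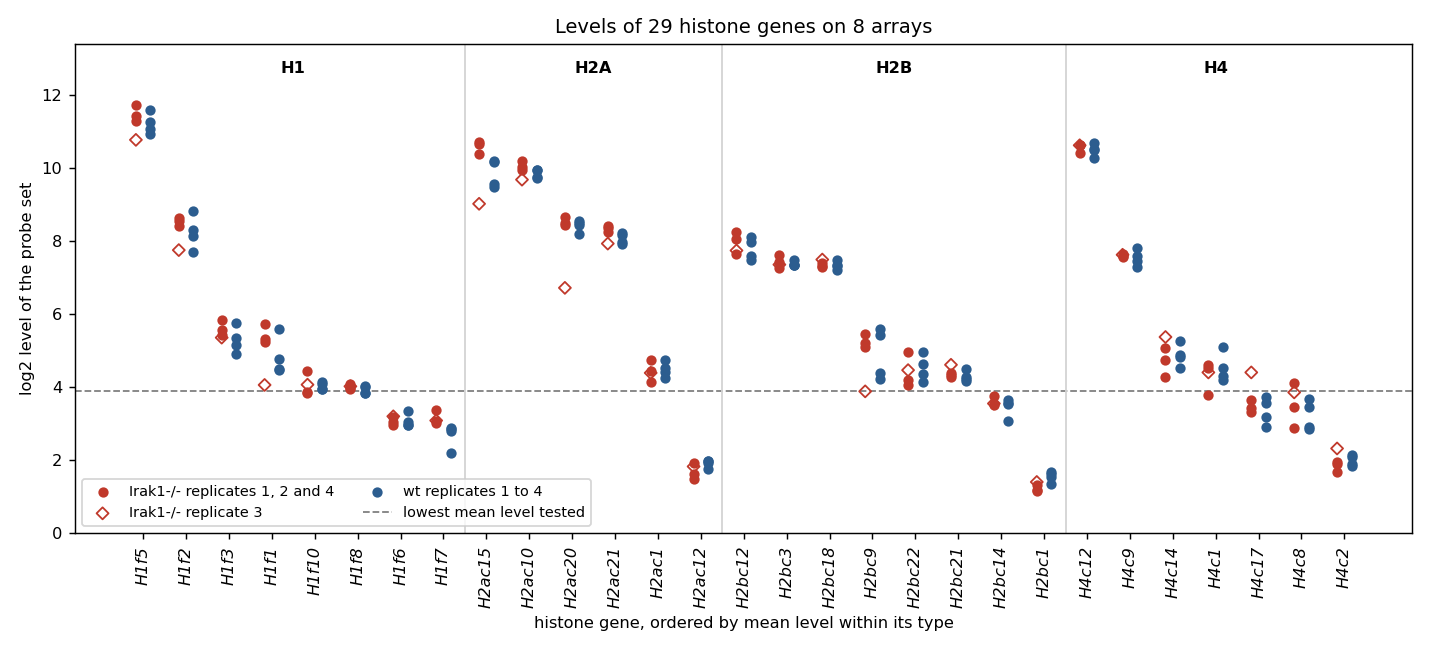
Log2 level of each of the 29 histone genes on the 4 Irak1-/- arrays (red, left, with replicate 3 as an open diamond) and the 4 wt arrays (blue, right), ordered by mean level within each type. The levels of the 2 genotypes overlap for every tested gene, and the open diamond lies well below the other red points for H2ac15, H2ac20, H1f1 and H2bc9.

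No histone gene differed between the genotypes past the threshold. Among the 21 tested, 0 had a limma adjusted p under 0.05, where 0.0751% of all tested genes did (10 of 13308), and the adjusted p values of the members ran from 0.824 to 0.993. No member reached an unadjusted p under 0.05 in either direction, against 2.88% of all genes for higher and 3.82% for lower values. The fitted log2 differences, Irak1-/- minus wt, ran from -0.35 (H2ac20) to 0.34 (H2ac15), with a median of 0.07 beside a median of -0.03 over all tested genes. Differences were above 0 for 16 of the 21 histone genes (76.2%), against 41.9% of all tested genes. For none of the 21 did the 2 groups of arrays separate without overlap, where 1.17% of all genes did with Irak1-/- higher and 1.86% with Irak1-/- lower.

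The level was higher on the Irak1-/- than on the wt array for 12 of the 21 genes in pair 1 (against 49.4% of all tested genes), 11 in pair 2 (against 42.7%), 13 in pair 3 (against 42.5%) and 14 in pair 4 (against 50.2%). Mean differences over the 21 genes were 0.17 in pair 1, 0.01 in pair 2, -0.15 in pair 3 and 0.20 in pair 4. H2bc21 alone was higher on the Irak1-/- array in 4 of 4 pairs (1 of 21, or 4.76%, against 5.26% of all genes), and 0 of 21 were lower in all 4, against 8.93%. The SD of the 4 pair means, 0.163, was larger than the median difference.

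**Figure D2:**
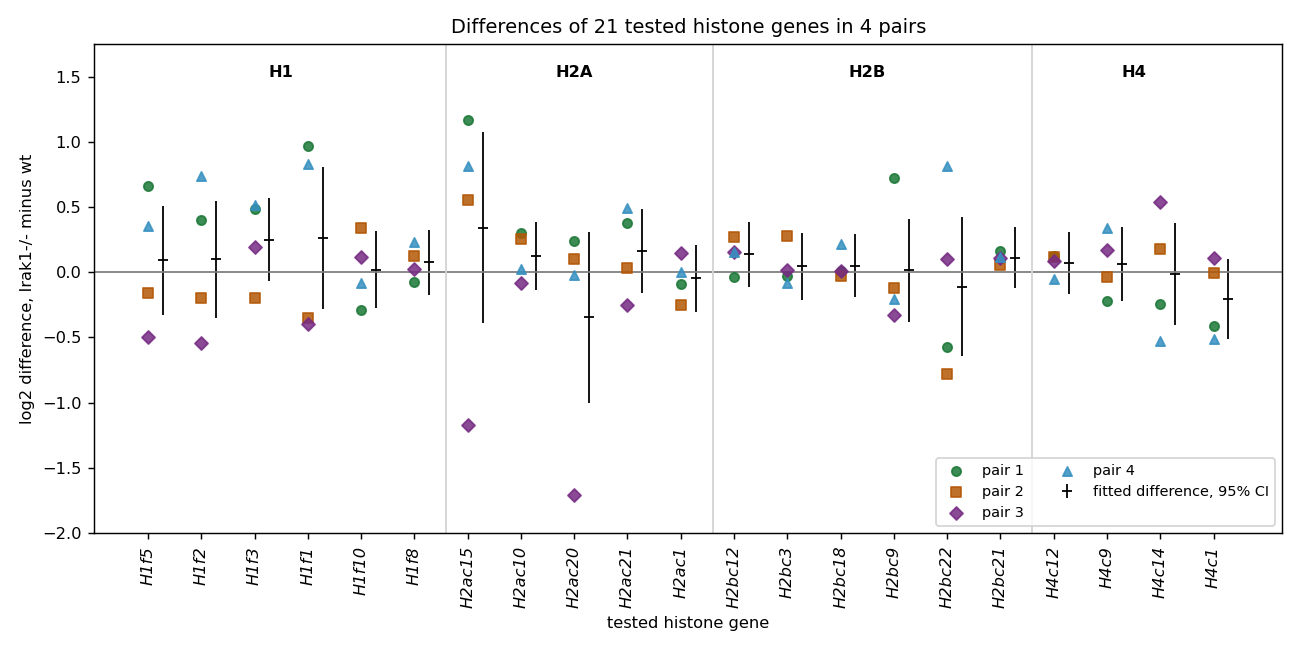
Log2 difference, Irak1-/- minus wt, of the 21 tested histone genes in each of the 4 pairs (coloured symbols), with the fitted difference and its 95% confidence interval beside them in black. All 21 intervals include 0, and the lowest points are pair 3 for H2ac20 (-1.71) and H2ac15 (-1.17).

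The 4 tested H1 genes of the chromosome 13 cluster, H1f1, H1f2, H1f3 and H1f5, encode somatic H1 subtypes. Each was higher on the Irak1-/- array in pairs 1 and 4 and lower in pair 2, and in pair 3 H1f3 alone was higher, by 0.19. H1f5 read 11.74, 11.43, 10.77 and 11.28 on the Irak1-/- arrays of replicates 1 to 4, against 11.07, 11.59, 11.27 and 10.93 on the wt arrays. Its Irak1-/- value was therefore higher in pairs 1 and 4 and lower in pairs 2 and 3, and the groups overlapped. The fitted log2 difference was 0.09 (SE 0.183, limma adjusted p = 0.957), a fold of 1.07 with a 95% confidence interval of 0.799 to 1.42.

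H1f2, one of the H1 subtypes found widely in somatic cells, read 8.55, 8.62, 7.75 and 8.43 on the Irak1-/- arrays, against 8.15, 8.82, 8.30 and 7.69 on the wt arrays. The same pairs were higher and lower as for H1f5, and the fitted difference was 0.10 (SE 0.198, limma adjusted p = 0.957). H1f1 read 5.74, 5.24, 4.06 and 5.32 on the Irak1-/- arrays, against 4.77, 5.59, 4.46 and 4.49 on the wt arrays. Its pair differences were 0.97, -0.35, -0.40 and 0.83, with a fitted difference of 0.26 (SE 0.239, limma adjusted p = 0.910) that was 0.03 without pair 1, 0.07 without pair 4 and 0.48 without pair 3.

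H1f3 read 5.83, 5.57, 5.36 and 5.43 on the Irak1-/- arrays, against 5.35, 5.76, 5.16 and 4.92 on the wt arrays. It was higher in 3 of 4 pairs, with only pair 2 lower, and its fitted difference of 0.25 (SE 0.141, 95% confidence interval -0.07 to 0.57) had the smallest p among the histone genes (limma unadjusted p = 0.112, adjusted p = 0.824). On the wt arrays alone, replicate 2 held the highest value of all 4 of these H1 genes. Averaged over the 4 genes, the difference was 0.63 in pair 1, -0.22 in pair 2, -0.31 in pair 3 and 0.61 in pair 4.

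The measured H1 genes outside the chromosome 13 cluster, which do not include H1f0, read low on both genotypes. H1f10 averaged 4.05 ± 0.273 on Irak1-/- and 4.03 ± 0.0990 on wt arrays (SD, n = 4 each), and the oocyte gene H1f8 averaged 4.01 ± 0.0549 and 3.93 ± 0.101. Neither differed past the threshold (limma adjusted p = 0.990 and 0.948). H1f7 read 3.02 to 3.39 on Irak1-/- and 2.18 to 2.87 on wt arrays, so the groups did not overlap. It lay under the level needed for testing, and in a fit with no level filter its difference of 0.46 had a limma adjusted p of 0.718. Germ line markers read as low, with 1 of 4 measured above that level. Ddx4 averaged 2.88 ± 0.316 on Irak1-/- and 2.82 ± 0.0854 on wt arrays, and Prm1, the sperm protamine, 3.95 ± 0.0378 and 4.04 ± 0.0771.

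H2A genes held both ends of the range of differences, and the Irak1-/- array of replicate 3 was the lowest of the 8 arrays for both. H2ac15 read 10.66, 10.71, 9.02 and 10.38 on the Irak1-/- arrays, against 9.49, 10.16, 10.20 and 9.57 on the wt arrays. It was higher in pairs 1, 2 and 4 and lower in pair 3, with a fitted difference of 0.34 (SE 0.322, limma adjusted p = 0.916). Leaving out pair 3 gave a difference of 0.85 (limma adjusted p = 0.149), while leaving out pair 1, 2 or 4 gave 0.07, 0.27 and 0.18. H2ac20, in the chromosome 3 cluster, read 8.43, 8.66, 6.72 and 8.49 on the Irak1-/- arrays, against 8.19, 8.55, 8.43 and 8.51 on the wt arrays. All arrays but that of replicate 3 lay between 8.19 and 8.66, and the fitted difference of -0.35 (SE 0.288, limma adjusted p = 0.904) became 0.11 without that pair.

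The other H2A genes differed less. H2ac10 read 10.04, 10.19, 9.68 and 9.96 on the Irak1-/- arrays, against 9.74, 9.93, 9.77 and 9.94 on the wt arrays, a fitted difference of 0.12 (SE 0.115, limma adjusted p = 0.912). Replicate 3 was once more the lowest Irak1-/- array. H2ac21 averaged 8.24 ± 0.215 on Irak1-/- and 8.07 ± 0.145 on wt arrays (SD, n = 4 each) and was higher in 3 of 4 pairs, with a fitted difference of 0.16 (limma adjusted p = 0.909). It was the only histone gene with a further probe set of its own. The testis gene H2ac1 averaged 4.43 ± 0.246 and 4.48 ± 0.211, and H2ac12 averaged 1.71 ± 0.203 and 1.90 ± 0.101, under the level needed for testing. Pair means over the 5 tested H2A genes were 0.40, 0.14, -0.61 and 0.26.

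The 6 tested H2B genes had pair means that lay closest together among the types. Their SD over the 4 pairs was 0.0937, against 0.453 for H2A, 0.306 for H1 and 0.205 for H4. H2B probe sets with several symbols, described below, varied more, with pair means of -0.01, 0.32, -0.98 and 0.22. H2bc12 read 8.07, 8.24, 7.74 and 7.65 on the Irak1-/- arrays, against 8.11, 7.97, 7.59 and 7.49 on the wt arrays, higher in 3 of 4 pairs. Its fitted difference was 0.14 (SE 0.109, limma adjusted p = 0.898). H2bc3 averaged 7.42 ± 0.149 on Irak1-/- and 7.37 ± 0.0667 on wt arrays, and H2bc18 averaged 7.38 ± 0.0883 and 7.33 ± 0.120 (SD, n = 4 each), with fitted differences of 0.05 and 0.05. For H2bc18 the 95% confidence interval of the fold was 0.875 to 1.22. The pair means of the 6 tested H2B genes were 0.04, -0.05, 0.01 and 0.17.

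H2bc21 read 4.39, 4.35, 4.61 and 4.27 on the Irak1-/- arrays, against 4.23, 4.29, 4.50 and 4.16 on the wt arrays. Each Irak1-/- value lay above that of its own pair, by 0.06 to 0.16, while the groups overlapped, and the fitted difference was 0.11 (SE 0.103, limma adjusted p = 0.912). H2bc22 and H2bc9 varied more. H2bc22 had pair differences of -0.58, -0.78, 0.10 and 0.81, and H2bc9 read 3.88 on the Irak1-/- array of replicate 3, against 5.10 to 5.46 on the other Irak1-/- arrays and 4.21 to 5.58 on the wt arrays. The untested H2bc14 averaged 3.59 ± 0.107 and 3.45 ± 0.257, and H2bc1 averaged 1.27 ± 0.112 and 1.55 ± 0.143.

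The 4 tested H4 genes did not share the pair pattern of the H1 genes. H4c12 read 10.41, 10.63, 10.62 and 10.63 on the Irak1-/- arrays, against 10.29, 10.51, 10.53 and 10.69 on the wt arrays. Its values spanned a narrow range on both genotypes, replicate 3 included, and the fitted difference was 0.07 (SE 0.105, limma adjusted p = 0.948). The interval of its fold was 0.890 to 1.24. H4c9 averaged 7.60 ± 0.0399 on Irak1-/- and 7.54 ± 0.215 on wt arrays (SD, n = 4 each), a fitted difference of 0.06.

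H4c1 read 3.77, 4.51, 4.40 and 4.60 on the Irak1-/- arrays, against 4.18, 4.52, 4.29 and 5.11 on the wt arrays. It was lower in 3 of 4 pairs. Its fitted difference of -0.20 (SE 0.135, limma adjusted p = 0.867) had the smallest p among the members with negative differences. H4c14, in the chromosome 3 cluster, had pair differences of -0.24, 0.18, 0.54 and -0.53, and on Irak1-/- arrays its highest value, 5.37, was that of replicate 3. Pair means of the 4 tested H4 genes were -0.19, 0.06, 0.23 and -0.19, against 0.63, -0.22, -0.31 and 0.61 for the H1 genes of the cluster. H4c17, H4c8 and H4c2 lay under the level needed for testing, with mean levels of 3.52, 3.40 and 1.98.

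By place in the genome, the 14 tested genes on chromosome 13 had a median difference of 0.08 and the 5 on chromosome 3 a median of 0.05. Over all types, the Irak1-/- array of replicate 3 was the lowest of the 8 arrays for 6 of the 21 tested histone genes (28.6%), close to the 29.4% of all tested genes for which it was. The 6 were H1f5, H1f1, H2ac15, H2ac10, H2ac20 and H2bc9. Relative to the mean of the other Irak1-/- arrays, that array had differences of -1.81 for H2ac20, -1.56 for H2ac15, -1.37 for H1f1, -1.37 for H2bc9 and -0.71 for H1f5, and of 0.07 for H4c12, 0.15 for H2bc18 and 0.68 for H4c14. Without pair 3 the median difference over the tested histone genes was 0.11, against 0.07 with it.

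Genes of DNA replication and mitosis give the cell cycle context in the same pairs. Over all tested genes 41.9% of differences were above 0, with a median of -0.03, beside which the counts of the lists that follow are read. Of 30 tested S phase genes 0 were called, 12 had positive and 18 negative differences, and the median was -0.04. The sign of that median was not stable, at 0.06 without pair 2, 0.03 without pair 3 and -0.11 without pair 1. Their pair means were 0.23, -0.22, -0.25 and 0.11, positive and negative in the same pairs as the H1 genes of the cluster. These signs were not particular to the 2 groups. Replacement histones had pair means of 0.15, -0.14, -0.23 and 0.13, and histone transcription genes 0.17, -0.26, -0.24 and 0.05. In pair 4 histone chaperones had -0.07 and histone mRNA processing genes 0.0006. Mitosis genes had pair means of 0.12, -0.29, -0.47 and -0.06, with 22 of 23 differences below 0, a median of -0.16 and 0 called. That median was -0.07 without pair 3, -0.26 without pair 1, and 0.00 without the block and the replicate 3 Irak1-/- array. Rrm2, a subunit of the enzyme that makes deoxynucleotides, had the smallest p among the S phase genes, with a difference of 0.22 (limma adjusted p = 0.798), and was higher in all 4 pairs. Lig1, a DNA ligase, and Gins1, a subunit of the replicative helicase, had -0.22 and -0.19, and Pcna, the sliding clamp of DNA polymerases, had -0.05 (limma adjusted p = 0.960). Among mitosis genes it was Anln, an actin-binding protein of cell division, at -0.34 (limma adjusted p = 0.610), lower in 4 of 4 pairs. The checkpoint kinase Bub1b had -0.39 (limma adjusted p = 0.708) and the kinesin Kif20a -0.31 (limma adjusted p = 0.753). Mki67, the proliferation marker, averaged 9.98 ± 0.299 on Irak1-/- and 10.14 ± 0.218 on wt arrays (SD, n = 4 each). Myeloid markers were higher on the Irak1-/- array in each pair, by means of 1.14, 1.49, 1.65 and 1.89, and their part in the histone values was not tested.

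**Figure D3:**
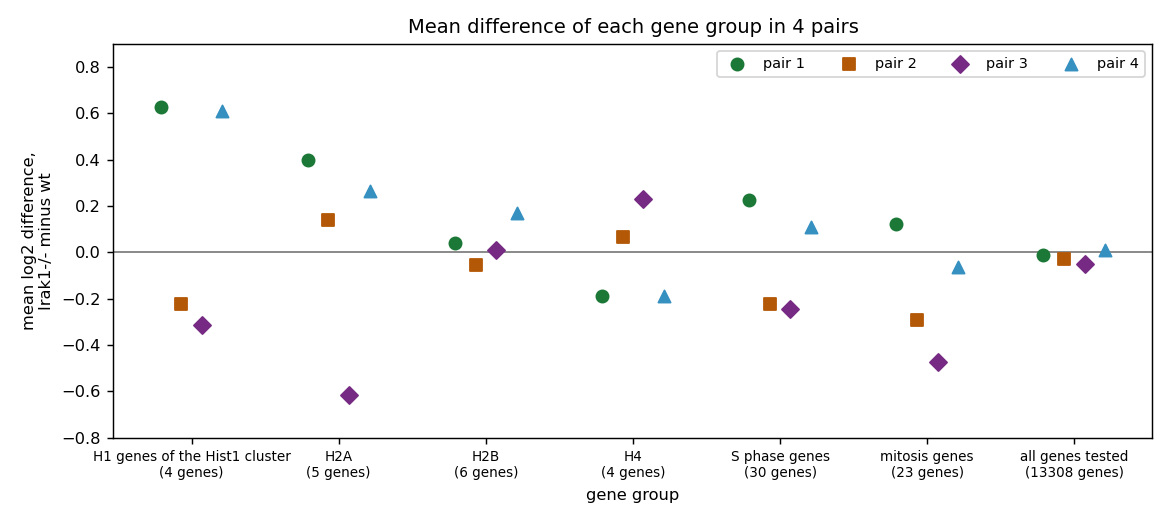
Mean log2 difference, Irak1-/- minus wt, of each gene group in each of the 4 pairs. The H1 genes of the cluster and the S phase genes lie above 0 in pairs 1 and 4 and below 0 in pairs 2 and 3. The mean of the 4 tested H4 genes has the opposite signs, which not each of these genes shares. All tested genes lie between -0.05 and 0.01.

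The list of replacement histones was measured with 9 genes, 8 of them tested. None was called, 5 had positive and 3 negative differences, and their median was 0.02. H2ax, whose protein marks DNA breaks once phosphorylated, read 10.84, 10.44, 9.32 and 10.37 on the Irak1-/- arrays, against 10.03, 10.69, 10.06 and 10.15 on the wt arrays. Its pair differences of 0.81, -0.24, -0.74 and 0.22 had the signs of those of H1f5, and the fitted difference was 0.01 (SE 0.219, limma adjusted p = 0.994). H2az2, an H2A.Z gene, read 8.93 to 9.52 on Irak1-/- and 9.55 to 9.95 on wt arrays, without overlap, with a difference of -0.30 (limma unadjusted p = 0.0492, adjusted p = 0.746). Cenpa, the H3 variant of centromeres, had -0.32 (limma adjusted p = 0.812), which was -0.09 without pair 3. H2az2 had -0.19 without that pair. H2az1 and H2ab1 had 0.09 and 0.23.

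The machinery that makes and handles histone mRNA did not differ past the threshold either. Of 14 tested genes of histone transcription, 6 had positive and 8 negative differences, with a median of -0.03. Over all tested genes 41.9% were positive and the median was -0.03. Npat, the coactivator of histone genes, averaged 6.69 ± 0.227 on Irak1-/- and 6.87 ± 0.142 on wt arrays (SD, n = 4 each). It was lower in 4 of 4 pairs while the groups overlapped, with a fitted difference of -0.18 (SE 0.109, limma adjusted p = 0.851). Wee1, a kinase that restrains entry into mitosis, had -0.36 (limma adjusted p = 0.812), and Nfyc, a subunit of the CCAAT-binding factor, -0.24 (limma adjusted p = 0.859). Without pair 2 Wee1 had -0.17, and without pair 3 Nfyc had -0.07.

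Processing genes of histone mRNA gave a median of -0.08 over 16 genes, 5 positive and 11 negative. Slbp averaged 8.30 ± 0.257 on Irak1-/- and 8.22 ± 0.200 on wt arrays (SD, n = 4 each), a difference of 0.08 (SE 0.113, limma adjusted p = 0.950). Its pair differences of 0.19, -0.07, -0.07 and 0.25 were again positive in pairs 1 and 4. Cpsf3, the nuclease that cuts histone pre-mRNA, had -0.20 and was lower in 4 of 4 pairs, Zfp473, a partner of the processing complex, had -0.21 and Mif4gd, which links SLBP to translation, had 0.23, with limma adjusted p between 0.851 and 0.862. Histone chaperones, 23 genes, had a median of -0.05, with 9 positive and 14 negative, against 41.9% positive over all tested genes. Npm1, a nucleolar chaperone, and Supt16, a subunit of the FACT complex, were higher in 4 of 4 pairs by 0.16 and 0.17, and the importin Ipo4 had -0.26, with limma adjusted p between 0.868 and 0.872. The value of Ipo4 was -0.02 without pair 4.

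Many histone genes are near-identical copies, and 37 further probe sets were annotated to several histone genes at once. They are described here by type, with no gene named and no test. Probe sets with identical values were counted once. H3 was measured only in this way, by 12 probe sets annotated to either 4 or 8 H3 genes, with mean levels from 1.80 to 7.69. Over all 12 the median difference, Irak1-/- minus wt, was 0.17, from -0.48 to 0.65. Of these, 4 lay above the level needed for testing, and their median difference was 0.37, with pair means of 0.33, 0.11, 0.03 and 0.85. The H3 probe set with the highest mean, 7.69, had a difference of -0.06, with values of 7.79, 7.69, 7.48 and 7.67 on the Irak1-/- arrays and 7.70, 7.79, 7.76 and 7.62 on the wt arrays. Another, at 6.44, had 0.59, with a wt value of 4.52 in replicate 4 beside 6.37, 6.81 and 6.89 on the other wt arrays.

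Among H2B probe sets with several symbols, 5 distinct ones had a median difference of -0.09, and the Irak1-/- array of replicate 3 was the lowest of the 8 arrays for 4 of them. One such probe set, at a mean level of 4.61, read 2.67 on that array, against 5.09 to 5.21 on the other Irak1-/- arrays and 3.96 to 5.24 on the wt arrays. The H2B probe set with the highest mean, 12.11, read 12.18, 12.29, 11.65 and 12.13 on the Irak1-/- arrays and 11.99, 12.27, 12.18 and 12.16 on the wt arrays. The H2A probe set with the highest mean, 10.76, had pair differences of -0.13, -0.09, -0.40 and -0.04. For 8 distinct H2A probe sets above the level needed for testing the median difference was -0.01, from -0.17 to 0.44. The one at 0.44, with a mean level of 6.24, did not overlap between the genotypes. It read 6.34, 6.31, 6.69 and 6.48 on the Irak1-/- arrays and 5.92, 6.14, 6.18 and 5.84 on the wt arrays. Such separation with Irak1-/- higher was seen for 1.17% of all tested genes. For the 1 H4 probe set above that level, at 7.45, the difference was 0.08. The pair differences of that H4 probe set were 0.24, 0, -0.26 and 0.33, and did not follow the pair means of the 4 tested H4 genes. They were positive in pairs 1 and 4 and negative in pair 3, as were the pair means of the H1 genes of the cluster. Over all 5 H4 probe sets with several symbols the median was 0.36, from 0.03 to 1.02. A further 3 distinct probe sets had symbols that were not put under 1 type, with mean levels from 5.38 to 11.83. Their median difference was -0.06, with pair means of 0.19, -0.16, -0.58 and 0.28. The Irak1-/- array of replicate 3 was the lowest of the 8 arrays for all 3. Probe sets annotated to the same genes thus differed widely in level, so the difference of a single copy cannot be read from them.

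**Figure D4:**
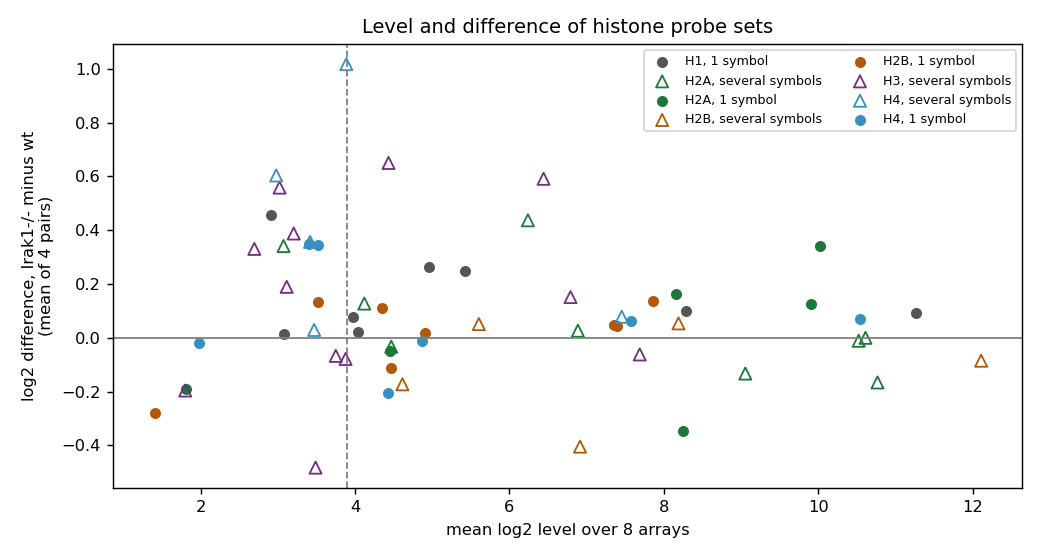
Mean log2 level over 8 arrays against the log2 difference, Irak1-/- minus wt, of histone probe sets with 1 symbol (filled circles) and with several symbols (open triangles), coloured by type, with the level needed for testing as a dashed line. Probe sets with mean levels above 7 lie between -0.35 and 0.34, and those near or left of the line scatter more widely, up to 1.02. Probe sets not put under 1 type are left out.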

How the data were processed

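The deposited values were log2 levels of probe sets on 8 arrays, 1 column per sample. How the authors corrected the background, summarized probes and normalized the arrays is unstated in the labels. Values ran from 0.681 to 14.00. Of 41345 probe sets, 23521 carried 1 symbol in the platform annotation, 1814 several and 16010 none here, and 23328 were matched by gene ID to the GRCm38.p6 gene table. Of each gene the probe set with the highest mean was kept, and genes above the 40th percentile of mean level were tested with limma 3.58.1 (R 4.3.3, lmFit and eBayes), with the batch label as a block. Tests were two-sided with Benjamini-Hochberg adjustment over 13308 genes, and an adjusted p under 0.05 was called. The procedure was tested on simulated data.

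Pairs come from the labels, since both arrays of a batch share pooled recipients. Deviations from the group means correlated within pairs 1 to 4 at 0.185, 0.143, 0.200 and 0.080 over the tested genes. Nothing shows further separate cultures or animals, so p-values refer to the spread between these 4 pooled experiments. In eBayes the variance of each gene is also drawn towards that of all tested genes. For a gene with little spread the SE is then set largely by the other genes. H2bc21, with pair differences of 0.06 to 0.16 and an SE of 0.103, is an example. Members, gene lists and alternatives were chosen with earlier results of these data known. Named genes are, per histone type, the 3 with the highest level and the smallest p, the 6 smallest p in each direction, 3 per related list and a fixed panel. H1f7, H1f8, H1f10, H1f6, H2ac12, H2bc9, H2bc14, H4c17, H4c8 and H4c2 were named beyond this rule, after their values were seen, as were the markers Lyz2, Cybb, Csf1r, Itgam, Cd68, Adgre1, Cst3, Ddx4 and Prm1. No erythroid marker had a probe set with 1 symbol. The alternatives covered the block, normalization, filter, probe set choice, variance prior and each pair left out.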

Additional observations from a re-analysis of the deposited data

Results flagged for a closer look

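Single arrays lay apart from the other 3 of their genotype for 9 of 106 groups of 4 values examined, by Dixon's criterion, which chance meets in about 1 of 20 groups. For histone genes these were H2ac20 at 6.72 on the Irak1-/- array of replicate 3 (others 8.43 to 8.66), H4c12 at 10.41 on Irak1-/- replicate 1 (others 10.62 to 10.63), H2bc14 at 3.75 on Irak1-/- replicate 2 (others 3.52 to 3.55), H1f7 at 2.18 on wt replicate 2 (others 2.80 to 2.87) and H2bc3 at 7.47 on wt replicate 1 (others all at 7.34). For related genes they were H2az2 at 8.93 on Irak1-/- replicate 3 (others 9.45 to 9.52) and at 9.95 on wt replicate 1 (others all at 9.55), Nfyc at 6.36 on Irak1-/- replicate 3 (others 7.02 to 7.10) and Ipo4 at 5.06 on wt replicate 1 (others 5.60 to 5.70).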

How the results depend on the processing

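No histone gene was called under any alternative tried for that count, among them no replicate block (0 of 21), quantile normalization, no level filter and each pair left out. The number of all genes called was 10, with 11 without the replicate block, 16 with a random replicate block, 16 with median centring, 16 with eBayes trend and robust settings, and 7 (without pair 2) to 17 (without pair 1) with pairs left out in turn. The median histone difference of 0.07 was also 0.07 without the replicate block, 0.06 to 0.11 with pairs left out, 0.05 with probe sets of several histone symbols and 0.07 without H1f7, H1f8 and H1f10. The H4 median of 0.03 ran from -0.08 to 0.06 with pairs left out. The pairing changed no call of a histone gene. Directions of single genes turned with left-out pairs, none of them called. Ranges were -0.11 to 0.31 for H1f2, -0.10 to 0.29 for H1f5, -0.11 to 0.02 for H2ac1, -0.54 to 0.11 for H2ac20, -0.42 to 0.11 for H2bc22, -0.03 to 0.09 for H2bc3, -0.20 to 0.16 for H4c14, -0.03 to 0.16 for H4c9, -0.25 to 0.26 for H2ax, -0.03 to 0.17 for Irak1 and -0.10 to 0.02 for Pcna. Leaving out both the replicate block and the replicate 3 Irak1-/- array gave differences of 0.10 for H2ac20, 0.05 for Pcna and 0.02 for Gins1, against -0.35, -0.05 and -0.19. The causes were not tested.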
